A study of Mus musculus with 30 samples.

Results

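The alveolar type 1 cell genes Ager, Aqp5, Hopx, Pdpn, Cav1, Rtkn2 and Emp2 and the club cell genes Scgb1a1, Scgb3a2 and Cyp2f2 were examined for H3K27ac in mouse lung adenocarcinoma cells. They are 10 of 21938 annotated protein-coding genes, 7 of type 1 and 3 of club cells, and the list names known markers of these cell types without using any peak value. The data are lists of H3K27ac peaks from chromatin immunoprecipitation and sequencing in 2 cell lines, CK1750 and Tnm2. Cells of each line received either UNC0638 at 1 µM, which blocks the H3K9 methylating enzymes G9a and Glp, or its solvent DMSO. The 9 H3K27ac samples comprised 3 of CK1750 with DMSO (with 2 replicate numbers), 2 of CK1750 with UNC0638 (both with the same replicate number) and 4 of Tnm2, of which 2 received DMSO and 2 UNC0638. The labels assign all samples of a group to 1 merged peak list, so there are 4 lists. Each list was taken to pool its group, which leaves no spread between replicates and no test of any difference. Both lines are established tumour lines kept in the same medium with serum, a comparison of lines is of 1 line with 1 other, and the methods give an exposure of several days, with the drug renewed midway, for cell culture experiments in general.

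Alveolar type 1 cells are the thin, flat cells that form most of the gas exchange surface of the lung, and they arise in part from alveolar type 2 cells. Club cells are secretory cells of the conducting airways that release secretoglobins and metabolise inhaled chemicals with cytochromes P450. H3K27ac is the acetylation of a lysine in the tail of histone H3 and is found at active promoters and enhancers, so a peak at a gene marks acetylated chromatin and is not a measurement of its transcript.

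The deposited lists held 27367 peaks (CK1750 with DMSO), 24601 (CK1750 with UNC0638), 30641 (Tnm2 with DMSO) and 18794 (Tnm2 with UNC0638). A peak's score is −10 log10 of its P value from the authors' peak caller, and the lists begin at a score of 50. Read depth is unknown, so scores rank peaks within a list and were not compared between lists. A score's percentile is given as the share of peaks in the same list with the same or a lower score. Percentiles order peaks within a list, and since the lists differ in length they were not compared between lists. Among markers of the labelled cell type, Nkx2-1, the lung epithelial transcription factor, had a promoter peak in all 4 lists. So did 3 of 5 general epithelial genes, Cdh1, Krt8 and Krt18. Krt7 had one in every list but that of CK1750 with UNC0638, and Epcam had none in any list. No peak lay at the promoters of the 3 basal or 4 immune markers in any list. Of the 4 fibroblast markers Col1a1 had a promoter peak in 3 lists, of the 4 endothelial markers Pecam1 had one in both Tnm2 lists, and of the 4 ciliated cell markers Ccdc78 had one in 1 list, nearer to another gene. The defining markers of type 2 cells were mixed: Abca3 and Sftpc had promoter peaks in all 4 lists, although the peak at Sftpc lay nearer to the start of another gene, Sftpb had them with UNC0638 in Tnm2 alone, and Sftpa1, Lamp3 and Slc34a2 had none.

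Acetylated promoters were first sought by asking which genes had a peak within 2.5 kb of any of their own annotated transcription start sites (TSSs). Aqp5, Cav1 and Emp2 had a promoter peak in all 4 lists, in both lines and with both treatments. Scgb1a1 had a weak promoter peak in the DMSO list of each line and none with UNC0638. Ager, Hopx, Pdpn, Rtkn2, Scgb3a2 and Cyp2f2 had none in any list. This gave 4 of the 10 genes in CK1750 with DMSO, where 50% of all protein-coding genes had a promoter peak. There were 3 of 10 in CK1750 with UNC0638 (49.1% of all genes). In Tnm2 there were 4 of 10 with DMSO (49.4%) and 3 of 10 with UNC0638 (41.3%). A promoter peak in all 4 lists was found for 39.3% of all genes and in none of them for 46.0%. The 3 and 6 genes in these classes lie near those shares, and nothing particular to the 10 genes is read from their number.

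**Figure D1:**
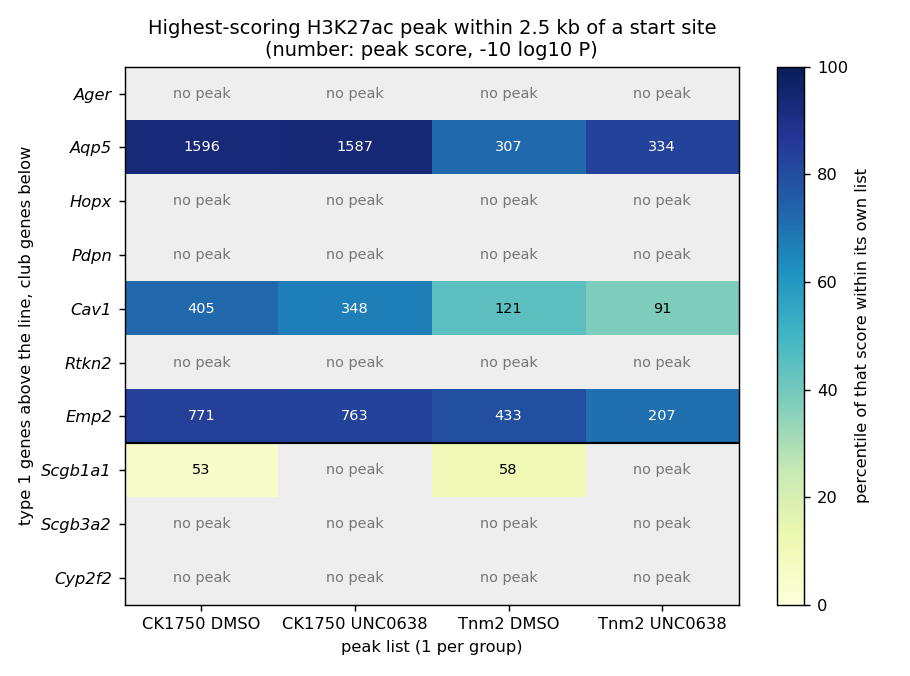
Each row is a gene and each column a peak list. Colour gives the percentile of the gene's highest-scoring promoter peak within its own list, the printed number is that peak's score (−10 log10 P), and grey marks genes without a peak within 2.5 kb of a TSS. Aqp5, Cav1 and Emp2 are filled in all 4 columns, Scgb1a1 is filled in the DMSO columns only and near the bottom of the scale, and 6 genes are empty throughout.

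Promoters with and without a peak are shown next, and base composition varied within each of these groups. Each is the reference sequence from 250 bases before to 50 bases after a RefSeq start, in the sense of the gene (GRCm38.p6, the build of the peak lists), with every CpG dinucleotide in capitals. The table of promoters held 7 of the 10 genes (9 promoters) and did not include Rtkn2, Scgb1a1 and Scgb3a2. The first 3 sequences carried a peak in all 4 lists and the last 3 carried none.
Aqp5, chr15:99590778-99591077, plus strand: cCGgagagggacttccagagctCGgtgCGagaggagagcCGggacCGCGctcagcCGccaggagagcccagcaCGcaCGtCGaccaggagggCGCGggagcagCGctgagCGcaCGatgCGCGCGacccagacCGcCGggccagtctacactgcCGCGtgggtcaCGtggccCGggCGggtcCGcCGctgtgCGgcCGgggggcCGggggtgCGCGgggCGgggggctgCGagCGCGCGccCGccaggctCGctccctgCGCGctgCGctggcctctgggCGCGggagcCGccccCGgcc
Emp2, chr16:10313919-10314218, minus strand: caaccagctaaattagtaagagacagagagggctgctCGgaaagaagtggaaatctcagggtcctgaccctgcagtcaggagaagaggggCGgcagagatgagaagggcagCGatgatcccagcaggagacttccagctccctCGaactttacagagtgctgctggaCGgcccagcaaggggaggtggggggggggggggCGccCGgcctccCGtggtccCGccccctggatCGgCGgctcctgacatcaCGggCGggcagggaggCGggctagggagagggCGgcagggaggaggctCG
Cav1, chr6:17306085-17306384, plus strand: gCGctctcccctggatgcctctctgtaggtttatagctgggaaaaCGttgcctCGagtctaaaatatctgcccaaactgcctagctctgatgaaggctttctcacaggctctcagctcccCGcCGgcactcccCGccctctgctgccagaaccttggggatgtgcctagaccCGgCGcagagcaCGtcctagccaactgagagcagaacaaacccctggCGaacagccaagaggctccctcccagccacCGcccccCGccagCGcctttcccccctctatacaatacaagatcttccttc
Hopx, chr5:77095218-77095517, minus strand: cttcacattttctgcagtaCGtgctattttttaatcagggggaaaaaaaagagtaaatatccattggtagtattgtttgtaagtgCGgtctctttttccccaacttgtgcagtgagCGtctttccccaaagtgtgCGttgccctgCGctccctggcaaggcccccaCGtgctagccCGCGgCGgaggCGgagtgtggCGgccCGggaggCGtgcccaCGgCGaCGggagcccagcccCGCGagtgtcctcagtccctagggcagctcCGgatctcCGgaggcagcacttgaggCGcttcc
Ager, chr17:34597600-34597899, plus strand: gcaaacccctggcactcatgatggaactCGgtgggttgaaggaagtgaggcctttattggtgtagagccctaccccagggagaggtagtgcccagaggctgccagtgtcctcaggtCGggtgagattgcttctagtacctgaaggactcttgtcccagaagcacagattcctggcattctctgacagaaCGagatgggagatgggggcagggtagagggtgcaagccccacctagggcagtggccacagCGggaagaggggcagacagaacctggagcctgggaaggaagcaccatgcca
Cyp2f2, chr7:27119705-27120004, plus strand: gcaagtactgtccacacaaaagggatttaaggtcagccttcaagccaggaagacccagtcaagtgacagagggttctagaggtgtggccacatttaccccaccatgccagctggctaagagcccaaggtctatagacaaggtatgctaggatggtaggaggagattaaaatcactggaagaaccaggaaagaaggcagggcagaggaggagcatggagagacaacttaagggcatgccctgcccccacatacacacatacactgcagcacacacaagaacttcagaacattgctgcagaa

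The Aqp5 promoter was the most CpG rich of these, with 46 CpGs, a GC content of 79.7% and a CpG observed over expected ratio of 0.97. Emp2 had 16 CpGs and a ratio of 0.52, and the upstream Cav1 promoter had 13 CpGs and a ratio of 0.53. A downstream Cav1 promoter (start at position 17307640) had 16 CpGs, a ratio of 0.60, and was overlapped by a peak in 3 lists. The promoters without a peak spanned a wider range that reached the bottom of the scale, with ratios of 0.0 for Cyp2f2, which had 0 CpGs, 0.16 for Ager and 0.40 for Pdpn. Hopx had 2 promoters in the table, with ratios of 0.80 and 0.38, and neither carried a peak. The order was therefore not complete, since the Hopx promoter with 21 CpGs was richer than those of Emp2 and Cav1.

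Over all 32851 promoters of the table the median ratio was 0.38. Promoters classed as CpG rich (a ratio of at least 0.6 and a GC content of at least 50%) made up 33.5% of them. In the order CK1750 with DMSO and UNC0638, then Tnm2 with DMSO and UNC0638, a peak overlapped 73.4%, 73.6%, 69.6% and 59.8% of the CpG-rich promoters and 12.3%, 12.5%, 12.9% and 9.61% of the others. Emp2 and the upstream Cav1 promoter fell in the CpG-poor class and were acetylated all the same. For ratios from 0.5 to 0.6, which hold both, the shares with a peak were 38.0%, 36.9%, 36.4% and 27.2%. Letters of the GC box (GGGCGG, searched on both strands) were found 3 times in the Aqp5 promoter and 4 times in that of Emp2. They were found 2 times in the upstream Cav1 promoter and 2 times in that of Pdpn. Of all promoters 35.7% held them. The share was 75.8% in the CpG-rich class, which holds Aqp5, and 15.5% in the CpG-poor class, which holds the other promoters just named. The letters CTCAAG, the core of the Nkx2-1 motif, were found once in each Hopx promoter and in 15.9% of all promoters.

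Aqp5, the water channel of the apical membrane of type 1 cells (chr15:99590782-99594829, plus strand), had the highest-ranked promoter peaks of the 10 genes in CK1750. Its top promoter scores were 1596.07 (percentile 93.0) and 1587.39 (93.6) in CK1750 with DMSO and UNC0638. In Tnm2 they were 307.09 (72.1) and 333.64 (83.1). Peaks covered 5.13, 6.08, 2.77 and 4.24 kb of the 6.67 kb within reach of its 6 TSSs. More of this stretch was thus covered in the CK1750 lists than in the Tnm2 lists, but read depth is unknown and the lists differ in length. Peaks were present with both treatments in each line. The other promoter peaks of Aqp5 had scores of 53.86 and 242.51 in the CK1750 lists, of 91.13 and 76.37 in Tnm2 with DMSO and of 59.54 in Tnm2 with UNC0638.

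A second acetylated stretch lay about 5 kb before Aqp5, centred between Aqp2 and Aqp5. Its peaks had scores of 980.26 and 1154.71 in CK1750 (percentiles 87.3 and 89.6) and of 988.09 and 509.05 in Tnm2 (92.5 and 91.2). They were 3.6, 3.4, 2.8 and 3.3 kb wide. In Tnm2 this upstream peak outranked the promoter peak in both lists, and in CK1750 the promoter peak ranked higher in both. Together with the promoter it formed a merged region of 11.5 kb. The central 300 bases of the upstream peak of CK1750 with DMSO are shown (GRCm38.p6, plus strand, 51.7% GC, 5 CpGs) because this stretch was acetylated in every list, with capitals for the one match to the AP-1 motif TGANTCA on either strand. That motif was found in 10.3%, 10.7%, 11.0% and 10.3% of the central 300 bases of all peaks of the 4 lists.
Aqp5 upstream peak, chr15:99585137-99585436: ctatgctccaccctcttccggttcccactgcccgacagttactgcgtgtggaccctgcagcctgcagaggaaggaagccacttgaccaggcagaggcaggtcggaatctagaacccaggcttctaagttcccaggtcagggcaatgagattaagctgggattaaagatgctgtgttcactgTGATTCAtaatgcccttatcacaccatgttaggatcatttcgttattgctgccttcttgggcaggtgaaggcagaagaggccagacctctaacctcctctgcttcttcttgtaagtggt

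Further peaks of the Aqp5 window lay between −49.6 and −23.0 kb, nearer to Aqp2 or Faim2, and 1 weak peak lay in Racgap1. They brought the number within 50 kb of the gene to 7, 9, 10 and 6, of which 3, 3, 4 and 3 were nearest to Aqp5. A region at −36.4 kb was held by all lists but that of Tnm2 with UNC0638, and regions at −49.6 and −26.5 kb by all but that of CK1750 with DMSO. The region at −36.4 kb had top scores of 186.06, 303.85 and 104.69 in the 3 lists that held it. At −49.6 kb the scores were 105.49, 133.7 and 86.83, and at −26.5 kb they were 66.25, 66.95 and 61.67.

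Emp2, a membrane protein of the tetraspan family (chr16:10281749-10313968, minus strand), had 1 promoter peak in each list. The scores were 771.22 (percentile 83.7) and 762.68 (83.0) in CK1750 with DMSO and UNC0638. In Tnm2 they were 432.55 (79.2) and 207.24 (70.4). In each list the peak scored above the median of that list's peaks.

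The body of Emp2 held intronic peaks in every list. A region 26.6 kb into the gene was present in all 4, with top scores of 933.29, 434.66, 379.94 and 246.57 in the order of the lists above, and a region at 15.8 kb was present in all 4 as well, at 56.4, 163.89, 175.9 and 113.34. Regions at 13.5 and 12.1 kb were held by all lists but that of Tnm2 with UNC0638. The intron at 26.6 kb held a higher score than the promoter in CK1750 with DMSO and in Tnm2 with UNC0638, and a lower one in the other 2 lists. The numbers within 50 kb of the gene were 9, 6, 5 and 4, and every one of these peaks lay nearest to Emp2.

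Cav1 encodes caveolin-1, the coat protein of caveolae, and is also abundant in endothelial cells and fibroblasts (chr6:17306335-17341452, plus strand). Its promoter peaks had top scores of 404.7 (percentile 72.5) and 348.49 (67.0) in CK1750 with DMSO and UNC0638. In Tnm2 they were 121.44 (44.9) and 91.49 (37.8), so that the peak scored below the median of the list in both. A further promoter peak in Tnm2 with DMSO had a score of 76.72. With scores of at least 100 no promoter peak of Cav1 was left in the list of Tnm2 with UNC0638. Of the genes that mark the other cell types, Col1a1 (fibroblasts) had promoter peaks of 102.58, 51.89 and 96.78 in the first 3 lists. Pecam1 (endothelium) had them at 116.3 and 230.74 in Tnm2. The samples are cultured tumour lines, and their labels name no endothelial cells or fibroblasts. Cdh5, Kdr, Tek, Col1a2, Pdgfra and Pdgfrb had no promoter peak in any list.

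An intronic region 10.1 kb into Cav1 differed between the lists. No peak was called there in CK1750 with DMSO, and peaks of 167.81 (percentile 47.9), 467.15 (80.7) and 354.83 (84.5) were called in CK1750 with UNC0638 and in the DMSO and UNC0638 lists of Tnm2. In Tnm2 the intronic peak therefore outranked the promoter peak in both lists, whereas in CK1750 with UNC0638 the promoter ranked higher. Of all 37698 merged regions 2.02% were held by every list but that of CK1750 with DMSO. The central 300 bases of the peak of Tnm2 with DMSO are shown (plus strand, 50.7% GC, 5 CpGs). This region was chosen because it was missing from the list of CK1750 with DMSO and scored above 100 in each of the others. Capitals mark a match on the minus strand to the forkhead motif TGTTTNC, which was found in 21.7% of the peak centres of that list.
Cav1 intronic peak, chr6:17316347-17316646: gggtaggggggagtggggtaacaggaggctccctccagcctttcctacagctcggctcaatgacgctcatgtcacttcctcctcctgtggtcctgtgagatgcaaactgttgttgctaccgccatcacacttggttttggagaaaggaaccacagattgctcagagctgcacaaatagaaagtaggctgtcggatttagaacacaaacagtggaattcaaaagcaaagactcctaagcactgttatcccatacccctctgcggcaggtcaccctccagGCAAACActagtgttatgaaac

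A region 48.0 kb from the Cav1 start, past the end of the gene, was held by all 4 lists. The neighbour Cav2, whose product joins caveolin-1 in caveolae, had a promoter peak in all 4 lists at 1268.42, 1237.25, 513.58 and 331.89, each ranked above the promoter peak of Cav1 in the same list. The numbers within 50 kb of Cav1 were 4, 6, 6 and 4, of which 3, 5, 5 and 3 lay nearest to Cav1. The antisense gene Gm15581 overlaps the whole stretch, so peaks in introns of Cav1 are also in an intron of Gm15581.

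Rtkn2 (chr10:67979570-68059740, plus strand) had no promoter peak and was acetylated inside the gene. In CK1750 with DMSO a region 28.9 kb into the gene, in an intron, was held as a pair of peaks of 313.69 and 469.5 (percentiles 67.4 and 75.5). In CK1750 with UNC0638 it was held as 1 peak of 643.68 (79.8), and in Tnm2 with DMSO as a peak of 99.4 (37.1) that covered 0.5 kb. In Tnm2 with UNC0638 it held none. Regions held by all lists but that one made up 8.66% of the merged regions of the series.

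A further intronic region of Rtkn2 at 60.1 kb had peaks of 151.26 and 156.92 in the CK1750 lists and none in Tnm2. A peak at 4.6 kb was called in CK1750 with DMSO alone, at a score of 51.13 and so next to the calling cutoff. Within 50 kb of the gene the CK1750 lists held 4 and 3 peaks and the Tnm2 lists 1 and 0. In Tnm2 with UNC0638 the nearest peak was 122 kb from a TSS of Rtkn2. The central 300 bases of the peak 28.9 kb into the gene in CK1750 with UNC0638 are shown (plus strand, 42.3% GC, 5 CpGs). In that list this peak scored highest among those within 50 kb of a type 1 gene without a promoter peak. Capitals mark 1 match each to CTCAAG (Nkx2-1), TGANTCA (AP-1) and GGAATG (TEAD), found in 16.2%, 10.7% and 15% of the peak centres of that list.
Rtkn2 intronic peak, chr10:68008288-68008587: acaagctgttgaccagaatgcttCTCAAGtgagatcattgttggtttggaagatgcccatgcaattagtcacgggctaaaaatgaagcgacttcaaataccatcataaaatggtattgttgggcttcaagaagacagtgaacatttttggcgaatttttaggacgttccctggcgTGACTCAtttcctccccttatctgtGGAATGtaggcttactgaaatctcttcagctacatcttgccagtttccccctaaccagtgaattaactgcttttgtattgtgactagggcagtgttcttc

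**Figure D2:**
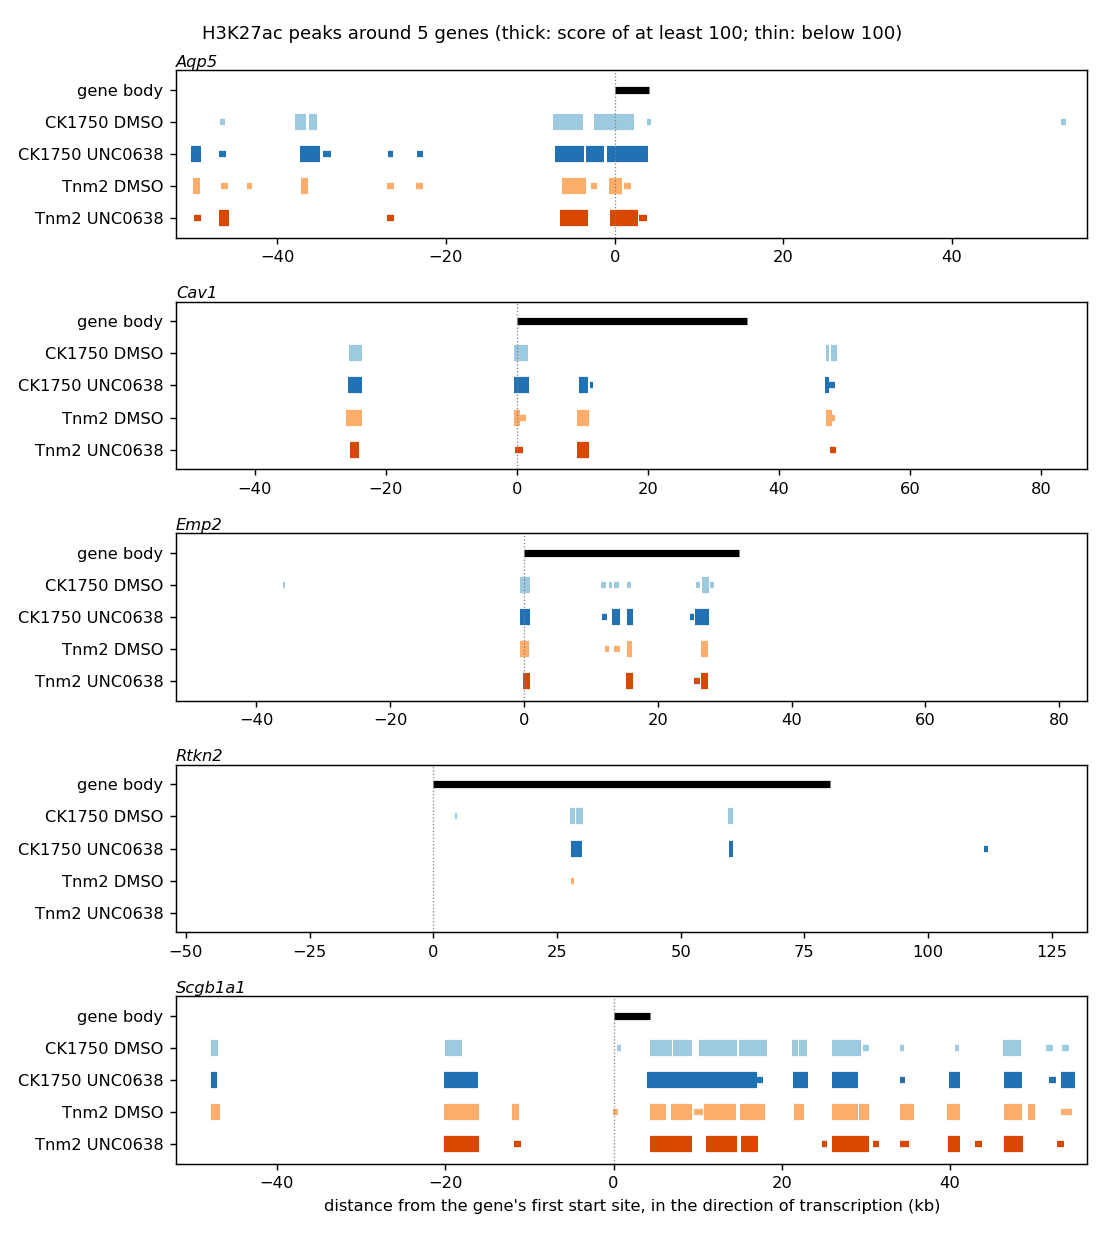
Peaks around Aqp5, Cav1, Emp2, Rtkn2 and Scgb1a1 in the 4 lists, plotted by distance in kb from the first start site in the direction of transcription, with the gene body in black, thick bars for scores of at least 100 and thin bars below 100. The stretch before Aqp5 is filled in all 4 rows, the Cav1 intron at 10.1 kb in all but CK1750 with DMSO, and the Rtkn2 row of Tnm2 with UNC0638 is empty.

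Ager encodes the receptor for advanced glycation end products and is among the most used type 1 cell markers (chr17:34597862-34600936, plus strand). It had no promoter peak in any list, although 7, 9, 8 and 5 peaks lay within 50 kb. All of these reached within 1 kb of the TSS of another protein-coding gene, and 0 lay nearest to Ager. The peak closest to it lay 4.58, 4.75, 4.77 and 4.81 kb from its TSSs, at the promoter of Pbx2. The highest scores in the window were 486.16, 287.58, 501.34 and 242.24, at Pbx2, Agpat1, Ppt2 and Ppt2. Peaks in this gene-dense stretch also lay at Notch4, Gpsm3, Rnf5, Agpat1, Ppt2, Fkbpl and Atf6b. Acetylation within 50 kb of Ager was thus acetylation of neighbouring promoters in each list.

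Hopx and Pdpn had no peak within 50 kb in any list. Hopx, a homeodomain protein that does not bind DNA by itself (chr5:77086988-77115121, minus strand), had its nearest peak at 120 kb in each list. Pdpn, the membrane glycoprotein podoplanin (chr4:143267431-143299564, minus strand), had its nearest peak at 86.0, 85.8, 85.9 and 85.9 kb. A list that ends at a cutoff cannot show that weaker acetylation was absent there.

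Scgb1a1 encodes the main secretory protein of club cells (chr19:9083636-9087958, minus strand, 1 TSS). Its promoter peak was in an intron, 0.7 kb inside the gene, at a score of 53.02 (percentile 4.6) in CK1750 with DMSO. In Tnm2 with DMSO it covered the start at a score of 57.88 (11.3). Neither UNC0638 list held a promoter peak. Both scores are among the lowest of their lists, close to the cutoff of 50.

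Scgb1a1 was accordingly the one gene of the 10 with a promoter peak in DMSO and none with UNC0638, in each line. That was 1 of 4 acetylated promoters in CK1750, where 4.85% of all genes with a promoter peak in DMSO had none with UNC0638, and 1 of 4 in Tnm2, where the share was 17.7%. Among genes whose highest DMSO promoter score was under 60, as for Scgb1a1, the shares were 49.8% in CK1750 and 83.8% in Tnm2, so that weak promoter peaks of any gene were often missing from the other list. With scores of at least 100, or with the 18794 highest-scoring peaks of each list, Scgb1a1 had no promoter peak in any list. No gene of the 10 had a promoter peak with UNC0638 and none in DMSO, against 3.03% of all genes without a DMSO promoter peak in CK1750 and 1.18% in Tnm2.

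The surroundings of Scgb1a1 were strongly acetylated, with 18, 12, 18 and 13 peaks within 50 kb. Most lay in introns of Ahnak, a large scaffold protein gene that is itself used as a type 1 marker, or between Ahnak and Scgb1a1. A merged region of 14.3 kb, from inside Ahnak to the end of Scgb1a1, was held by all 4 lists. In CK1750 with UNC0638 it was mostly 1 peak of 13.0 kb with a score of 1250.0, which reached into the last part of Scgb1a1, and in the other lists it was split into several peaks. Top scores in that region were 1073.84, 955.99 and 583.79 in CK1750 with DMSO and in the DMSO and UNC0638 lists of Tnm2.

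On the other side, a region of 4.3 kb between genes, 18.1 kb before the Scgb1a1 start, was held by all 4 lists at 1113.99, 956.29, 971.79 and 690.68. These peaks ranked at percentiles 89.0, 86.6, 92.3 and 94.8, far above the promoter peak. A region 11.5 kb before the start had peaks in the Tnm2 lists alone, at 176.1 with DMSO and 56.18 with UNC0638. Of the peaks in the window 13, 8, 14 and 11 lay nearest to the Scgb1a1 TSS by distance, which does not assign them to that gene rather than to Ahnak.

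Cyp2f2, the cytochrome P450 of club cells that acts on naphthalene (chr7:27119909-27133660, plus strand), had no promoter peak. Of peaks within 50 kb there were 3, 2, 2 and 2, all at the promoters of Egln2, Rab4b or Cyp2t4, and the highest scores, 820.85, 734.37, 446.51 and 113.14, lay at Egln2. The nearest lay 44.0 kb from its TSSs in both CK1750 lists and in Tnm2 with UNC0638, and 31.1 kb in Tnm2 with DMSO. The last of these was a peak of 111.69 at Cyp2t4.

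Scgb3a2, a second secretoglobin of club cells (chromosome 18, positions 43764289 to 43767399, plus strand), had no peak within 50 kb in any list. The nearest peaks were 295, 294, 219 and 296 kb from its TSSs. Of the 3 club cell genes of this set, then, only Scgb1a1 had a promoter peak in these lists, and its scores were within 10 of the cutoff.

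Across the wider window, 7 of the 10 genes had a peak within 50 kb in CK1750 with DMSO (74.3% of all protein-coding genes) and 7 with UNC0638 (72.7%). In Tnm2 there were 7 with DMSO (74.3%) and 6 with UNC0638 (68.7%). The gene that made the difference in the last list was Rtkn2. The numbers of peaks summed over the 10 genes were 52, 47, 50 and 34, of which 32, 24, 29 and 21 lay nearest to the gene itself. Within 2.5 kb of a TSS of any annotated gene lay 20, 19, 20 and 12 of them, of which Ager, with its neighbours' promoters, accounted for 7, 9, 8 and 5. The median per gene was 4, 4.5, 3.5 and 3, beside 2 for all protein-coding genes in each list.

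Peak numbers and covered lengths moved apart in CK1750. Peaks covered 64.7 kb with DMSO and 76.0 kb with UNC0638 in that line although their number was lower, and 64.4 and 54.2 kb in Tnm2. The median width of all peaks was 835 and 1048 bp in the CK1750 lists and 831 and 1040.5 bp in the Tnm2 lists, and the stretch beside Scgb1a1 is an example of several peaks with DMSO and 1 wide peak with UNC0638. The part of peak width in the numbers of peaks was not tested.

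**Figure D3:**
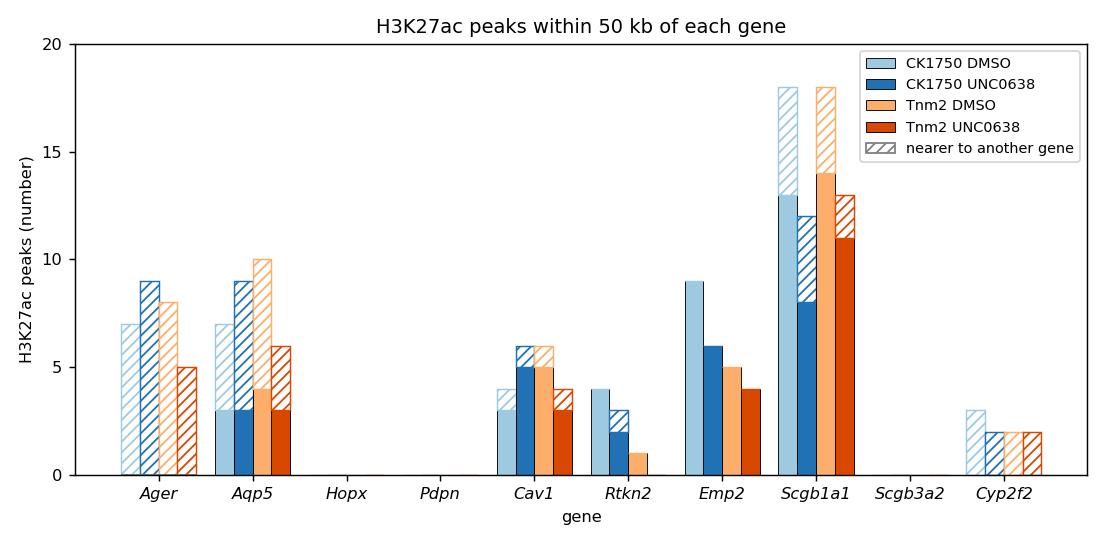
Bars give the number of H3K27ac peaks within 50 kb of each gene (y axis) in the 4 lists, with filled parts for peaks nearest to a TSS of the gene itself and hatched parts for peaks nearer to another protein-coding gene. The bars of Ager and Cyp2f2 are hatched throughout, those of Emp2 are filled throughout, and Hopx, Pdpn and Scgb3a2 have none.

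Overlapping peaks of the 4 lists were joined to ask which regions near the 10 genes were shared. There were 55 such regions, and 27 lay nearest to the gene itself. All 4 lists held 21 of them (34.2% of all merged regions of the series), and all lists but that of Tnm2 with UNC0638 held 6 (8.66%). Regions of the CK1750 lists only numbered 15 (22.4% of all) and regions of the Tnm2 lists only 8 (23.8%). Of the regions near each gene, all 4 lists held 5 of 10 at Ager, 2 of 9 at Aqp5, 3 of 5 at Cav1, 0 of 4 at Rtkn2, 3 of 8 at Emp2, 7 of 16 at Scgb1a1 and 1 of 3 at Cyp2f2. Emp2 and Rtkn2 had 3 regions each in CK1750 only and 0 in Tnm2 only, whereas Scgb1a1 had 1 and 5. Many of these were weak peaks. Those of Emp2 were single peaks of 80.46, 54.9 and 65.67, each in 1 list. At Rtkn2 the scores were 51.13 and 88.3 in 1 list each, and 151.26 and 156.92 for the region in both CK1750 lists. The Tnm2 regions of Scgb1a1 scored 121.91, 73.4, 64.47 and 50.14 in 1 list each, and 176.1 and 56.18 for the region in both Tnm2 lists. These counts are small and have no replicate error.

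Other marker genes of the same cell types were looked up in the same way. Of 14 further type 1 genes, 6, 6, 10 and 8 had a promoter peak in the 4 lists. Clic5, Vegfa, Lmo7, Gprc5a, Cav2 and Ahnak had one in all 4. Cldn18, a tight junction protein of the alveolar epithelium, had promoter peaks in Tnm2 alone, with top scores of 958.26 with DMSO and 491.69 with UNC0638. Timp3, an inhibitor of matrix metalloproteinases, likewise had them in Tnm2 alone, at 169.72 and 88.05. Col4a3 and Col4a4, collagen genes that share a promoter, had 1 peak between them, at 52.74 in Tnm2 with DMSO. Akap5, Igfbp2, Spock2 and Limch1 had none.

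Of 14 further club cell genes, 3, 2, 3 and 3 had a promoter peak. Aldh1a1, which oxidises retinal, and Muc5b, a gel-forming mucin, had one in all 4 lists. The top scores were 375.77, 326.23, 398.45 and 210.06 at Aldh1a1 and 282.01, 413.94, 87.08 and 50.46 at Muc5b. Cyp4b1 had a peak of 61.0 in CK1750 with DMSO alone, and Upk3a had peaks of 102.48 and 260.15 in Tnm2 with DMSO and UNC0638. The other 10 had none in any list. With the share of all genes at 41.3% to 50%, the further type 1 genes fell on both sides of it and the further club cell genes below it, and neither list was tested.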

How the data were processed

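H3K27ac peaks of mouse lung adenocarcinoma lines were analysed as deposited. According to the submitters' processing notes and the methods, reads were mapped to mm10 with Bowtie2, SAMtools was used, and MACS 1.4.2 identified peaks with a P value below 1e-05. The deposited score of each peak is the value of −10 log10 P given by the authors' caller. Which libraries entered a list, and whether input DNA was the control, was not given in the sources used here. The H3K9me2 and input samples (21) were not analysed here.

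Samples were grouped by line, treatment and mark from the labels, with 1 list per group. Positions are 1-based, and 0 peaks ended beyond any of 21 chromosomes of the reference. TSSs came from GENCODE release M 21 (55536 genes, 132758 TSS positions). A promoter peak overlapped by at least 1 bp the 2.5 kb on each side of any TSS of a gene, and a nearby peak the gene extended by 50 kb on each side. The nearest gene was the protein-coding gene whose TSS lay closest to the peak's centre. Promoter sequences came from RefSeq (GRCm38.p6). Shares of all protein-coding genes or merged regions are given as background. No p-value was computed.

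All 10 genes are named, each with its promoter peaks or else its nearest peak, its highest-scoring nearby peak in each list and, as counts, the regions missing from a list, and of the further type 1 and club cell genes those with a promoter peak. The genes and lists were chosen with earlier results of these data known. The alternatives were a score of at least 100, equal numbers of the highest-scoring peaks, TSS windows of 1 and 5 kb, a gene window of 10 kb, coding transcripts only, peaks nearest to the gene only and regions merged within 1 kb. The comparison with genes of a promoter score under 60 was added after the data were seen. The overlap code was tested on simulated data. Python 3.11.15, numpy 2.4.6, pandas 2.3.3, pyfaidx 0.9.0.4 and matplotlib 3.10.9 were used.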

Additional observations from a re-analysis of the deposited data

Results flagged for a closer look

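Several quantities moved in opposite directions with UNC0638 in the 2 lines. These differences were not tested, since each group has 1 list. The number of peaks within 50 kb of Ager changed with UNC0638 by 2 (CK1750) and by -3 (Tnm2), that of Aqp5 by 2 and -4 and that of Cav1 by 2 and -2. Of the Ager peaks 0 lay nearest to Ager, and those called in CK1750 with UNC0638 alone scored 52.57 and 51.6. Peaks nearest to Aqp5 numbered 3 with DMSO and 3 with UNC0638 in CK1750, and 4 and 3 in Tnm2. For Cav1 they numbered 3 and 5 in CK1750 and 5 and 3 in Tnm2. Over the 7 type 1 genes together the change in peaks within 50 kb was 2 in CK1750 and -11 in Tnm2. Those nearest to the gene itself fell in both lines, from 19 to 16 in CK1750 and from 15 to 10 in Tnm2. The length covered by peaks within 50 kb of all 10 genes changed by 11.3 kb (CK1750) and -10.2 kb (Tnm2). For the type 1 genes alone it changed by 7.9 and -5.0 kb, and for the club cell genes by 3.4 and -5.2 kb. The list of Tnm2 with UNC0638 is the shortest of the series, at 18794 peaks against 30641 with DMSO. With equal numbers of peaks per list, the 10 genes had 31 peaks within 50 kb in Tnm2 with DMSO and 34 with UNC0638. In CK1750 they then had 36 and 32.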

How the results depend on the processing

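Of 130 values recomputed for 29 results, 104 stayed within 1.5 times the reported count and 26 moved. Each result is a count, which has no direction, so a reversal between lists could not be scored in this way. With a TSS window of 5 kb, 6 genes in CK1750 with UNC0638 and 5 in Tnm2 with UNC0638 had a promoter peak instead of 3 and 3, since Ager and Scgb1a1, and in CK1750 also Rtkn2, then had a peak in reach. The number of promoter peaks lost with UNC0638 was 0 instead of 1 in both lines with the 5 kb window and with equal numbers of peaks, and in CK1750 also with scores of at least 100. In Tnm2 it stayed at 1 with scores of at least 100, but the gene was then Cav1 and not Scgb1a1. In the order CK1750 with DMSO and UNC0638, then Tnm2 with DMSO and UNC0638, the peaks within reach of the 10 genes numbered 25, 20, 24 and 15 in a window of 10 kb, 32, 24, 29 and 21 when only peaks nearest to the gene counted, and 33, 29, 33 and 18 with scores of at least 100. The count for Tnm2 with DMSO was 31 with equal numbers of peaks. With scores of at least 100 there were 34 regions near the genes, 11 of them in all 4 lists, 7 in CK1750 only and 5 in Tnm2 only. Merging within 1 kb left 9 in CK1750 only and 4 in Tnm2 only. No paired analysis was possible because each group has 1 merged list, and for the same reason no replicate could be left out. Depth is unknown, so an absent peak may be a weak one below the cutoff.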
